A study of Homo sapiens with 9 samples.

Results

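The spindle assembly checkpoint genes described here were MAD1L1, MAD2L1, MAD2L2, BUB1, BUB1B, BUB3, TTK, ZW10, KNTC1 and MAD2L1BP, measured in ovarian carcinoma cells exposed to the mithramycin analogue DIG-MSK. They were taken as the gene probes whose identifier on the array was a RefSeq transcript of 1 of these genes, which gave 11 of the 42405 gene probes and 10 of the 21832 genes tested, since BUB3 had 2 probes. The other 9 genes were chosen for their function, although with earlier results of these data known. MAD1L1 was picked because its level was strongly reduced at 8 nM on these same arrays. The values of MAD1L1 at 8 nM are therefore a description and carry no test.

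The cells were A2780, an established human ovarian carcinoma line kept in serum-supplemented RPMI medium. One group received no drug, and the others were exposed for 24 h to 8 nM or to 80 nM DIG-MSK, a derivative of mithramycin SK with an altered sugar chain. Mithramycins bind C/G-rich DNA in the minor groove and can displace transcription factors of the Sp1 family from it. Each group had 3 arrays, from separate replicates of the same line, and the groups differed only in the drug as far as the labels say. RNA was labelled with 1 dye and hybridised to a whole-genome Agilent array. The untreated and 8 nM arrays shared slide 1, and all 80 nM arrays lay on slide 2 with its own scan, so an effect of 80 nM and a difference between slides cannot be told apart. On slide 1 the untreated arrays and 8 nM replicate 1 lay in row 2, and 8 nM replicates 2 and 3 in row 1. The part of this position was not tested. Of all arrays, 8 nM replicate 2 had the fewest probes read well above background (24814). Over the 9 arrays, the 75th percentile of processed intensities ranged from 831.7 to 1170, and log2 values of arrays of 1 group correlated at 0.9891 to 0.9957. Of 9 ovarian and epithelial markers, KRT8, KRT18, EPCAM and VIM were well above background on all arrays, PAX8 on 3 arrays, and CDH1, WT1, MUC16 and MSLN on none. Well above background on all arrays were also 3 of 5 fibroblast, 2 of 5 leukocyte and 1 of 4 endothelial markers. Some markers moved with the drug. At 8 nM, EPCAM (0.90), COL3A1 (0.64) and PDGFRB (0.58) were called higher on the log2 scale. At 80 nM, COL3A1 (2.08), KRT8 (0.30) and VIM (0.40) were called higher and DCN (-1.39) and EPCAM (-0.93) lower. COL1A2 was not well above background on any 80 nM array. Its untreated level was 48.8-fold above that of the dimmest probes read well above background on the 80 nM arrays. Such a reading is decided spot by spot, so this value is a rough guide and not a strict bound. It is a description and carries no test. The part of these markers in the results was not tested.

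The spindle assembly checkpoint holds a dividing cell before anaphase until every chromosome is attached to spindle microtubules. At an unattached kinetochore, the kinase MPS1, the product of TTK, marks the scaffold KNL1, BUB1 and BUB3 bind there, and MAD1 bound to MAD2 turns further MAD2 into its active form. Active MAD2, BUBR1 (the product of BUB1B), BUB3 and CDC20 then form the mitotic checkpoint complex, which blocks the anaphase-promoting complex and so protects cyclin B and securin from destruction. Many of these genes are expressed mainly in cells that are about to divide.

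Since DIG-MSK binds C/G-rich DNA, the 250 bases before the start of each gene were read from RefSeq promoters on GRCh38.p14, which held 7 of the 10 members and did not list KNTC1, TTK and BUB3. They are shown for MAD1L1, for its partner MAD2L1, for BUB1, the member whose levels ran most like those of MAD1L1, and for MAD2L2, the member that rose most at 80 nM. All 4 are on the minus strand, 5′ to 3′, at chr7:2232946-2233195, chr4:120066849-120067098, chr2:110678064-110678313 and chr1:11681149-11681398, respectively. Capitals mark the motifs searched on both strands, the GC box GGGCGG bound by Sp1, the CCAAT box CCAAT bound by NF-Y, and the cell cycle element CHR as TTTGAA or TTCGAA.
MAD1L1: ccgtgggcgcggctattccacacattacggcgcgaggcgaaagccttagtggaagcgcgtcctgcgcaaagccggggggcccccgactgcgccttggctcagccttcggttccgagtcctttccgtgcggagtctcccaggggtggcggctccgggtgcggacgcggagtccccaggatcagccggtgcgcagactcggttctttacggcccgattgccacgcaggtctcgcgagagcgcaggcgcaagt
MAD2L1: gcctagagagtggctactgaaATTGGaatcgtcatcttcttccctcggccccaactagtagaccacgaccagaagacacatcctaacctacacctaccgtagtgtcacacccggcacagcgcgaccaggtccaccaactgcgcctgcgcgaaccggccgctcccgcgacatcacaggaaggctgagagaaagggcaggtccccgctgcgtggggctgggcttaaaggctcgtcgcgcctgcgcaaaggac
BUB1: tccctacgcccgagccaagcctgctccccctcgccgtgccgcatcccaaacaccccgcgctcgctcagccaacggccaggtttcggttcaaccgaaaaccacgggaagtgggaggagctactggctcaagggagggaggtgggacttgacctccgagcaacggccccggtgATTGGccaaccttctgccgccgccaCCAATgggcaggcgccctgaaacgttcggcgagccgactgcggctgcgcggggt
MAD2L2: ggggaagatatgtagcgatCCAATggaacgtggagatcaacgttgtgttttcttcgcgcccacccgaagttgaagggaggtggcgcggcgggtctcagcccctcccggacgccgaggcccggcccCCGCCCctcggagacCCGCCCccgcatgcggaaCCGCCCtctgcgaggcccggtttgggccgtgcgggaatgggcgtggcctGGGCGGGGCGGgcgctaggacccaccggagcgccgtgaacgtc
The MAD1L1 stretch had a GC content of 68.4%, higher than that of 64.7% of the 15973 promoters of genes tested, and held none of the 3 motifs. MAD2L1 had 61.2% GC and 1 CCAAT box, and BUB1 had 67.6% GC and 2 CCAAT boxes, both without a GC box. The MAD2L2 stretch shown had 70.8% GC, 5 GC boxes, of which 2 overlapped, and 1 CCAAT box, and a further MAD2L2 start at chr1:11691560-11691809 had 81.6% GC and 3 GC boxes. Among the rest, ZW10 had 2 GC boxes, 1 CCAAT box and 1 CHR, BUB1B had 1 CHR, and the 2 starts of MAD2L1BP had 1 GC box and 1 CHR, respectively. A GC box occurred in 4 of the 9 promoters of members, beside 60.8% of the promoters of genes tested and 42.6% of all 35116 promoters. CCAAT occurred in 4 of the 9, beside 33.2% and 32.0%, and CHR in 3 of the 9, beside 10.5% and 14.3%. These matches describe letters in a window and do not show that a factor was bound.

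Levels are given on the log2 scale, as a probe's processed intensity relative to the 75th percentile of its array, so that 0 stands for a probe as bright as the 75th percentile. Probes differ in brightness, and levels are compared only between groups for the same probe. All 11 probes were well above background on all 9 arrays. A gene was called where the p-value from limma, after Benjamini-Hochberg adjustment over the 21832 genes tested, was under 0.05. This fit took no account of a pairing of arrays by replicate number, which was an alternative.

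In cells exposed to 8 nM DIG-MSK, MAD1L1 stood far below untreated cells, the MAD2L1 level fell to a lesser extent, and the other members moved little. At 80 nM, MAD1L1 remained below untreated cells but lay above its 8 nM level, MAD2L1 was again near its untreated level, and MAD2L2, ZW10, KNTC1 and MAD2L1BP rose. The plot of member levels shows these patterns array by array.

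**Figure D1:**
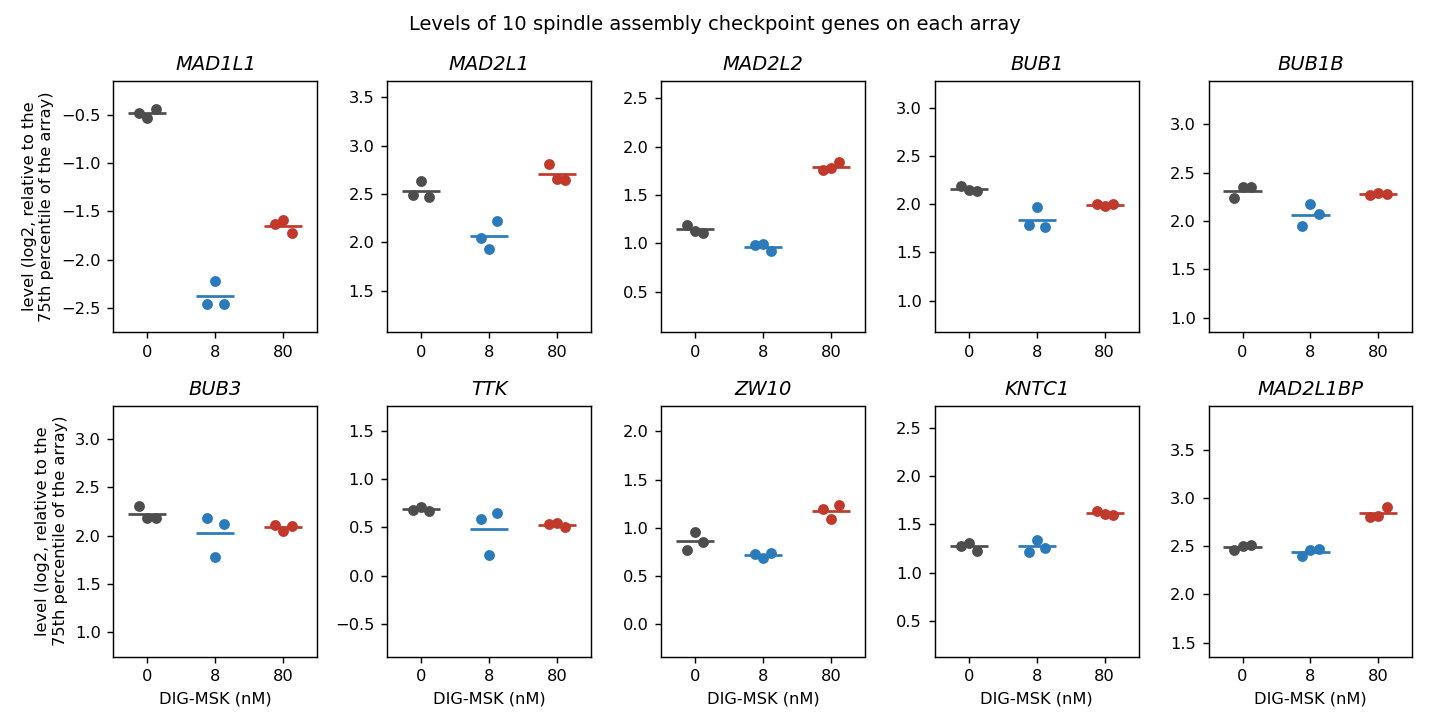
Levels of the 10 checkpoint genes (log2 processed intensity relative to the 75th percentile of the array) against the DIG-MSK concentration in nM. Each point is 1 array and each bar the mean of 3, every panel spans the same number of log2 units around its own centre, and the MAD1L1 means lie at -0.48, -2.38 and -1.65 for untreated, 8 nM and 80 nM.

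MAD1L1 (NM_003550) encodes MAD1, which anchors MAD2 at unattached kinetochores. Its levels were -0.48, -0.53 and -0.44 on the untreated arrays, -2.46, -2.22 and -2.46 at 8 nM, and -1.63, -1.59 and -1.72 at 80 nM. The 3 groups did not overlap, with the untreated arrays highest and the 8 nM arrays lowest. Before scaling, the processed intensity was 595.8, 757.8 and 755.2 in untreated cells, 208.3, 178.9 and 212.8 at 8 nM, and 320.8, 297.0 and 278.5 at 80 nM. The order of the groups was thus the same in the scanner values. The mean level at 8 nM was -2.38 ± 0.14 (SD, n = 3) against -0.48 ± 0.05 in untreated cells, a log2 difference of -1.90, or 3.72-fold lower, which ranked 22 from the lowest among the 21832 genes. These values chose the gene. At 80 nM the level fell by 1.16 on the log2 scale against untreated cells (95% confidence interval -1.36 to -0.97, adjusted p = 1.2e-05, limma with Benjamini-Hochberg adjustment), or 2.24-fold lower, and this comparison uses the same untreated arrays that chose the gene. The level at 80 nM was 0.73 above that at 8 nM, given as a description since the 8 nM arrays chose the gene. In RNA from whole cultures, fewer cells of a kind, such as cells about to divide, and less RNA per cell cannot be told apart, here and in all results that follow.

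MAD2L1 (NM_002358) encodes MAD2, the partner of MAD1 and the part of the checkpoint complex that captures CDC20. Its levels were 2.49, 2.63 and 2.47 in untreated cells, 2.04, 1.93 and 2.22 at 8 nM, and 2.81, 2.66 and 2.65 at 80 nM. All 8 nM arrays lay below all others, and the 80 nM arrays lay just above the untreated ones. At 8 nM the level fell by 0.47 on the log2 scale (95% confidence interval -0.69 to -0.25, adjusted p = 0.016, limma), or 1.38-fold lower. The call was not kept without untreated replicate 2 (-0.42, adjusted p = 0.057), in a fit of the 2 groups alone (adjusted p = 0.053, and 0.11 with the pairing by replicate number) or with spike-in scaling (-0.39, adjusted p = 0.78). At 80 nM the change against untreated cells was 0.17 (-0.05 to 0.39, adjusted p = 0.15), which turned to -0.10 with spike-in scaling. Between 8 and 80 nM the level rose by 0.64 (0.42 to 0.86, adjusted p = 0.00064, limma).

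The 3 BUB genes encode the kinase BUB1, the related BUBR1, which is a subunit of the checkpoint complex, and BUB3, which brings both to the kinetochore. BUB1 (NM_004336) had levels of 2.19, 2.15 and 2.14 in untreated cells, 1.78, 1.97 and 1.76 at 8 nM, and 2.00, 1.98 and 2.00 at 80 nM. The groups did not overlap, in the same order as for MAD1L1, although 8 nM replicate 2 lay close to the 80 nM arrays. BUB1 fell by 0.32 on the log2 scale at 8 nM (-0.49 to -0.15, adjusted p = 0.024, limma). The fit that pairs the arrays by replicate number gave the same change of -0.32 but no call (adjusted p = 0.054). The call also depended on single arrays, since the adjusted p was 0.07, 0.067 and 0.067 without untreated replicate 1, 2 or 3 and 0.06 and 0.076 without 8 nM replicate 1 or 3, and in all it was lost under 11 of 21 alternatives. At 80 nM the change of BUB1 was -0.16 (-0.33 to 0.00, adjusted p = 0.083, limma). It was called without 8 nM replicate 2 (adjusted p = 0.02), with quantile normalization (-0.18, adjusted p = 0.029) and in a fit of the 2 groups alone (adjusted p = 0.031). Between 8 and 80 nM the change of BUB1 was 0.16 (adjusted p = 0.098).

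BUB1B (NM_001211) had levels of 2.24, 2.35 and 2.35 in untreated cells, 1.95, 2.18 and 2.07 at 8 nM, and 2.27, 2.29 and 2.28 at 80 nM. The 8 nM arrays lay lowest and the other groups overlapped. The change at 8 nM was -0.24 (95% confidence interval -0.42 to -0.07, adjusted p = 0.074, limma) and passed the threshold only when 8 nM replicate 2 was left out (-0.30, adjusted p = 0.024). From 8 to 80 nM BUB1B rose by 0.21 (adjusted p = 0.047, limma), a call lost in 8 of the 9 fits that left out 1 array, all except that without 8 nM replicate 2, with changes between 0.15 and 0.27, and the sign turned to -0.15 with spike-in scaling. BUB3 was read by 2 probes, NM_001007793 and NM_004725. The brighter gave 2.31, 2.18 and 2.18 in untreated cells, 2.18, 1.78 and 2.12 at 8 nM, and 2.11, 2.05 and 2.10 at 80 nM. The 8 nM arrays overlapped both other groups, and replicate 2 lay apart from its 2 fellows. Its changes were -0.19 (-0.44 to 0.05) at 8 nM and -0.14 (-0.39 to 0.11) at 80 nM, and the dimmer probe gave -0.05 and 0.02, none of them called.

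TTK (NM_003318) encodes MPS1, the kinase that starts checkpoint signalling. Its levels were 0.68, 0.71 and 0.67 in untreated cells, 0.59, 0.21 and 0.65 at 8 nM, and 0.53, 0.55 and 0.50 at 80 nM. Both treated groups lay below the untreated arrays, and 8 nM replicate 2 lay far below the rest. The changes were -0.20 (95% confidence interval -0.46 to 0.05, adjusted p = 0.25, limma) at 8 nM and -0.16 (-0.41 to 0.10, adjusted p = 0.26) at 80 nM. Without 8 nM replicate 2 the change at 80 nM was called, at the same size (adjusted p = 0.028, limma). So it was in a fit of the untreated and 80 nM groups alone (adjusted p = 0.039).

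ZW10 and KNTC1 encode ZW10 and ROD, subunits of the RZZ complex, which recruits MAD1 with MAD2 and the motor dynein to kinetochores. ZW10 (NM_004724) had levels of 0.77, 0.96 and 0.85 in untreated cells, 0.73, 0.69 and 0.74 at 8 nM, and 1.20, 1.09 and 1.24 at 80 nM. KNTC1 (NM_014708) had levels of 1.28, 1.31 and 1.23 in untreated cells, 1.22, 1.34 and 1.26 at 8 nM, and 1.64, 1.61 and 1.60 at 80 nM. For both, the 80 nM arrays lay above all others, whereas the 8 nM arrays of KNTC1 spanned those of untreated cells. The changes at 80 nM were 0.32 for ZW10 (95% confidence interval 0.14 to 0.49, adjusted p = 0.0072, limma) and 0.35 for KNTC1 (0.20 to 0.49, adjusted p = 0.0018). At 8 nM they were -0.14 (-0.31 to 0.03) and 0.00 (-0.15 to 0.15), neither called.

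MAD2L1BP (NM_001003690) encodes p31comet, which binds active MAD2 and helps to switch the checkpoint off. Its levels were 2.46, 2.50 and 2.51 in untreated cells, 2.40, 2.46 and 2.47 at 8 nM, and 2.80, 2.81 and 2.91 at 80 nM. The 80 nM arrays stood apart from the rest, and the other groups overlapped. It rose by 0.35 at 80 nM (95% confidence interval 0.20 to 0.49, adjusted p = 0.0017, limma), while the change at 8 nM was -0.05 (-0.19 to 0.10, adjusted p = 0.65). MAD2L2 (NM_006341) encodes REV7, a relative of MAD2 that is best known as a subunit of DNA polymerase zeta and of the shieldin complex in DNA repair. Its levels were 1.19, 1.13 and 1.11 in untreated cells, 0.98, 0.99 and 0.92 at 8 nM, and 1.76, 1.78 and 1.84 at 80 nM. The groups did not overlap, with 8 nM lowest and 80 nM highest. MAD2L2 rose by 0.65 at 80 nM (0.51 to 0.79, adjusted p = 5e-05, limma), or 1.57-fold, and by 0.83 between 8 and 80 nM (adjusted p = 1.4e-05), and at 8 nM the change was -0.18 (-0.32 to -0.03, adjusted p = 0.097).

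**Figure D2:**
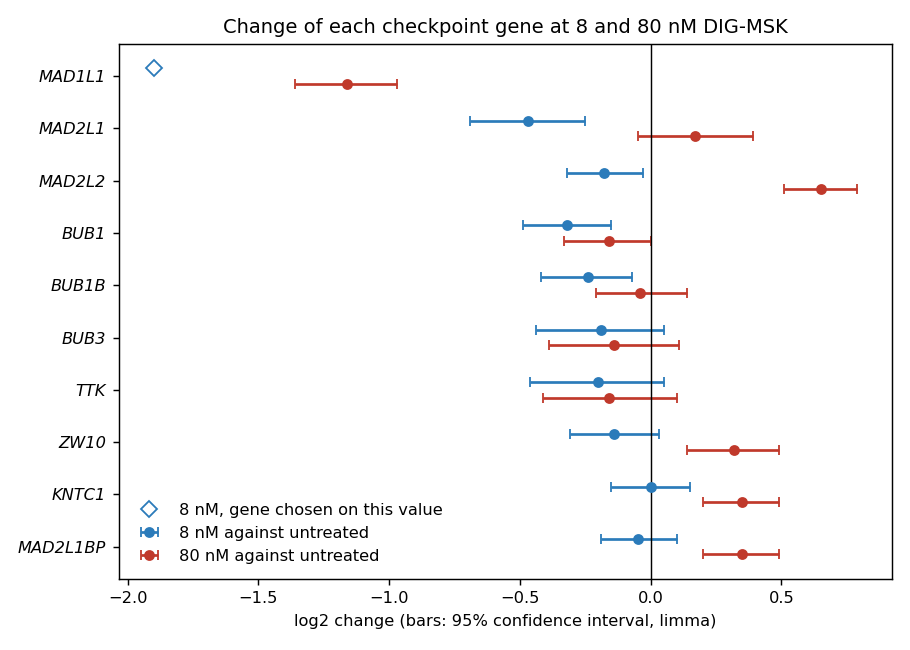
Change of each checkpoint gene against untreated cells on the log2 scale, for 8 nM (blue) and 80 nM (red), with bars for the 95% confidence interval from limma. The open diamond is MAD1L1 at 8 nM (-1.90), which chose the gene and has no interval, and MAD2L2 at 80 nM (0.65) lies farthest to the right.

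The rises at 80 nM depended on how the arrays were scaled. When they were scaled to the 10 spike-in control probes in place of the 75th percentile, the all-gene median of the change at 80 nM moved from 0.08 to -0.20, and the changes were 0.37 for MAD2L2 (adjusted p = 0.22, limma), 0.04 for ZW10, 0.07 for KNTC1 and 0.07 for MAD2L1BP, none of them called. Relative to the median of all genes, the changes at 80 nM were 0.57, 0.24, 0.27 and 0.27 for these 4 genes and -1.24 for MAD1L1. These values are the same under either scaling by construction, since each scaling shifts every gene of an array by the same amount. Their equality is therefore no test of the scaling. The change of MAD1L1 at 80 nM was called under all 21 alternatives run, with values between -1.44 and -1.01. All of these fits use untreated arrays that chose the gene, so they do not remove the effect of that choice.

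Counted over the members, at 8 nM 2 of the other 9 were called lower (MAD2L1 and BUB1) and none higher by limma (4 lower and 0 higher at an unadjusted p under 0.05), where 13.6% of all genes were called, 7.91% higher and 5.72% lower. Since MAD1L1 was chosen on this comparison, nothing is read from the count. The changes of these 9 had a median of -0.19 and ran from -0.47 to 0.00, beside a median of -0.06 over all genes. For 6 of these 9, all 8 nM arrays lay below all untreated arrays, as they did for 18.5% of all genes. At 80 nM, 4 of the 10 were called higher and 1 lower, where 59.0% of all genes were called, 33.3% higher and 25.7% lower, so the members' share was near that of all genes. There 5 members lay above and 4 below all untreated arrays, as did 40.3% and 31.7% of all genes. The median change was 0.07, beside 0.08 over all genes. Between 8 and 80 nM, where the 8 nM arrays had chosen MAD1L1, 6 of the other 9 were called higher and none lower (6 and 0 at an unadjusted p under 0.05), where 57.6% of all genes were called, 34.6% higher and 22.9% lower, and the median of the 9 was 0.34 beside 0.12. For 7 of the 9, all 80 nM arrays lay above all 8 nM arrays, as they did for 39.3% of all genes. With spike-in scaling limma called no member between 8 and 80 nM (0 also at an unadjusted p under 0.05), and the changes of BUB1, BUB1B, BUB3, TTK and KNTC1 turned negative (-0.20, -0.15, -0.30, -0.31 and -0.01), as the median of all genes went to -0.24. By the study's rule of at least 1.5-fold with an unadjusted p under 0.05, 1 member passed at 8 nM (MAD1L1), 2 at 80 nM (MAD1L1 and MAD2L2) and 3 between 8 and 80 nM (MAD2L1, MAD2L2 and the chosen MAD1L1), where 7.09%, 35.1% and 33.6% of all genes passed. The mean level was lowest at 8 nM for 9 of the 10 members, all but KNTC1, a count that includes the chosen MAD1L1. It was highest in untreated cells for 5 and at 80 nM for 5. The share of all genes with such orders was not computed, so nothing is read from these counts. They also depended on the scaling. With spike-in scaling BUB1, BUB1B, BUB3 and TTK were lower at 80 nM than at 8 nM, and MAD2L1BP was 0.03 above untreated cells at 8 nM. The comparisons share control samples, so these orders are not independent of each other.

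The partners of the checkpoint were read from 5 further gene lists. Their counts stand beside the shares of all genes called, 7.91% higher and 5.72% lower at 8 nM, and 33.3% higher and 25.7% lower at 80 nM. Among 10 genes of the kinetochore platform, on which the checkpoint proteins assemble, all changes at 8 nM were negative, with a median of -0.20, and 2 were called lower and none higher. These were KNL1, the scaffold that MPS1 marks, with a change of -0.57 (adjusted p = 0.0096, limma), and SPC25, a subunit of the NDC80 microtubule-binding complex, with -0.55 (adjusted p = 0.0085). At 80 nM, KNL1 and NSL1, of the MIS12 complex, fell by 0.74 and 0.41, while ZWINT, which links KNL1 to the RZZ complex, rose by 0.42, with DSN1 and NUF2 at 0.33 each and PMF1 at 0.32. Thus 4 of 10 were called higher and 2 lower, with a median of -0.05. The share called was 60.0%, beside 59.0% of all genes. With spike-in scaling none was called higher and 1 lower (KNL1), with a median of -0.33, and ZWINT (0.14), DSN1 (0.05), NUF2 (0.05) and NSL1 (-0.69) lost their calls, NUF2 also with median scaling and with the replicate block.

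Of 12 other checkpoint factors, all changes at 8 nM were negative, with a median of -0.32, and 6 were called lower and none higher, where 5.72% of all genes were called lower, but 3 were called with quantile normalization and 3 with median scaling. BIRC5 (survivin) and AURKB, both of the chromosomal passenger complex that corrects faulty attachments, fell by 0.54 (adjusted p = 0.02, limma) and 0.39 (adjusted p = 0.0078), and HASPIN, the kinase that places this complex on chromatin, fell by 0.39 (adjusted p = 0.023). At 80 nM 4 were called lower and 1 higher, or 41.7%, beside 59.0% of all genes. INCENP, the scaffold of the passenger complex, fell by 1.63 (adjusted p = 7.9e-05, limma), NUP153, a nuclear pore protein that binds MAD1, by 0.62, HASPIN by 0.61 and BIRC5 by 0.42. The gene called higher was ZWILCH, the remaining subunit of the RZZ complex, with a change of 0.82 (adjusted p = 0.0002), so that ZW10, KNTC1 and ZWILCH all had higher levels at 80 nM, although ZWILCH too was not called with spike-in scaling (0.54, adjusted p = 0.12).

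The checkpoint acts on the anaphase-promoting complex, the ligase that starts anaphase. Of 17 tested genes for the anaphase-promoting complex, its activators and its E2 enzymes, 1 was called lower at 8 nM, the E2 enzyme UBE2S (-0.51, adjusted p = 0.014, limma), and the median of -0.06 equalled that of all genes. UBE2C was on the list but not tested. CDC20, the activator that MAD2 captures, had a change of -0.21 at 8 nM (adjusted p = 0.11) and rose by 0.24 at 80 nM (adjusted p = 0.024), which turned to -0.04 with spike-in scaling. FZR1, the activator used after anaphase, fell by 1.21 at 80 nM (adjusted p = 5.4e-05), the complex's core subunit ANAPC2 by 0.48 and UBE2S by 0.32. The other 2 called higher at 80 nM were ANAPC16 with 0.42 and ANAPC15, a subunit that helps take the checkpoint complex apart, with 0.26, at 0.14 and -0.02 with spike-in scaling. In all, 3 were called higher and 4 lower at 80 nM, or 41.2%, beside 59.0% of all genes. With spike-in scaling the counts were 0 and 3, with the median moving from 0.00 to -0.28. The call of ANAPC2 was lost with normexp background correction (-0.19). That of ANAPC15 was lost there too, and also with median scaling and with the authors' log2 values. The call of CDC20 at 80 nM was also lost with median scaling and with the replicate block.

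Among 13 substrates and cohesin genes, 4 were called lower at 8 nM (2 with median scaling) and none higher, with a median of -0.23. SMC1A, a core subunit of cohesin, had a change of -0.58, SGO1, which protects cohesin at centromeres, -0.54, ESPL1 (separase), which cuts cohesin, -0.32, and CCNB1 (cyclin B1) -0.30. The other 2 probes of SMC1A gave -0.18 (not called) and -0.63 (called). At 80 nM 6 were called lower and 3 higher, or 69.2%, beside 59.0% of all genes. SMC1A fell by 2.88 on the probe used, whereas its other 2 probes gave -0.10 and -1.98, so its transcripts were not read alike. SGO1 fell by 0.64 and STAG1, a cohesin subunit, by 0.56, while SMC3, the partner of SMC1A, rose by 0.60, the cohesin regulator PDS5A by 0.35 and ESPL1 by 0.31. The last 3 were not called with spike-in scaling (0.32, 0.07 and 0.03).

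Genes of proliferation and mitosis were read for comparison. Of 14, 8 were called lower at 8 nM and none higher, 13 had a negative change and the median was -0.26, and 4 were called in the fit that pairs arrays by replicate number, 4 with median scaling and 3 with quantile normalization. MKI67, a marker of cycling cells, had a change of -0.75 (adjusted p = 0.017, limma), HMMR, a spindle protein, -0.42 (adjusted p = 0.012), and CCNA2 (cyclin A2) -0.41 (adjusted p = 0.025, lost with the pairing). Their part in the 8 nM changes of the checkpoint genes was not tested. With spike-in scaling limma called no gene of the 5 lists at 8 nM, where 4 of their 66 tested genes had an unadjusted p under 0.05, all lower. At 80 nM the proliferation genes split, with 4 called higher and 3 lower. CDK1, the kinase that drives entry into mitosis, rose by 1.13 (adjusted p = 2.8e-06, limma), the spindle motor KIF11 by 0.70 and TOP2A (topoisomerase II alpha) by 0.52, while MKI67 fell by 0.81, CCNB2 (cyclin B2) by 0.50 and CENPF by 0.45. Of these, CDK1 was called higher with spike-in scaling too (0.85, adjusted p = 0.014), and KIF11 and TOP2A were not. The probes of MKI67 disagreed at 80 nM, with 0.76 and -0.22 on those not used, which at 8 nM gave -0.24 and -0.56, neither called.

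**Figure D3:**
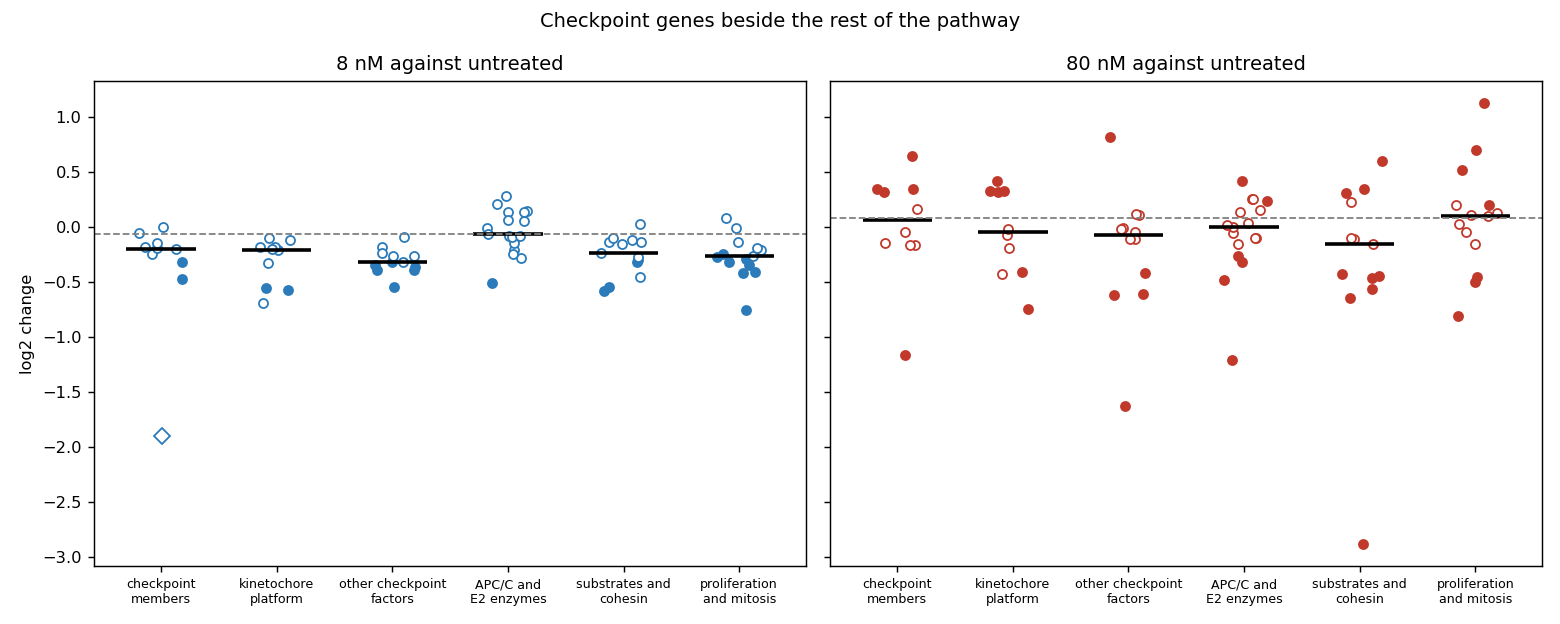
Log2 change of each gene against untreated cells at 8 nM (left) and 80 nM (right), for the 10 checkpoint genes and 5 lists of partners and comparison genes. Filled points were called by limma and open points were not, black bars are list medians, the dashed line is the median of all genes (-0.06 and 0.08), and the open diamond is MAD1L1 at 8 nM, the value that chose the gene.

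MAD1L1 lies on chromosome 7, and the tested genes next to it in RefSeq order moved in different directions. On one side, PSMG3, a proteasome assembly chaperone, had changes of -0.10 at 8 nM and 0.09 at 80 nM, neither called, and the antisense gene PSMG3-AS1 rose by 0.62 (adjusted p = 0.0017, limma) and 1.21 (adjusted p = 4.6e-06). ELFN1, the nearest on this side, fell by 0.45 at 8 nM (adjusted p = 0.031, and not called with the pairing by replicate number) and by 1.06 at 80 nM (adjusted p = 7.9e-05), with 80 nM below 8 nM by a log2 change of -0.61, where the MAD1L1 level was higher at 80 nM. On the other side, MRM2, a methyltransferase of mitochondrial ribosomal RNA, fell by 0.32 at 8 nM (adjusted p = 0.029), NUDT1, which removes oxidised nucleotides, had -0.11 (adjusted p = 0.47), and SNX8, a sorting nexin, fell by 0.49 (adjusted p = 0.0064). At 80 nM these 3 had changes of -0.05, -0.18 and 0.05, none of them called. With the scaling used, MRM2 and SNX8 were thus lower at 8 nM and near the untreated level at 80 nM. The lowest change of a neighbour at 8 nM was -0.49. With spike-in scaling none of these calls of neighbours at 8 nM was kept, while those of PSMG3-AS1 (0.93) and ELFN1 (-1.34) at 80 nM were. Under that scaling MRM2 and SNX8 had changes of -0.33 and -0.23 at 80 nM against untreated cells, neither called. Between 8 and 80 nM they had -0.09 and 0.18, so a return towards the untreated level depended on the scaling. How the labelling and the probes treated the strand of PSMG3-AS1 is not given in the sources used here.

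**Figure D4:**
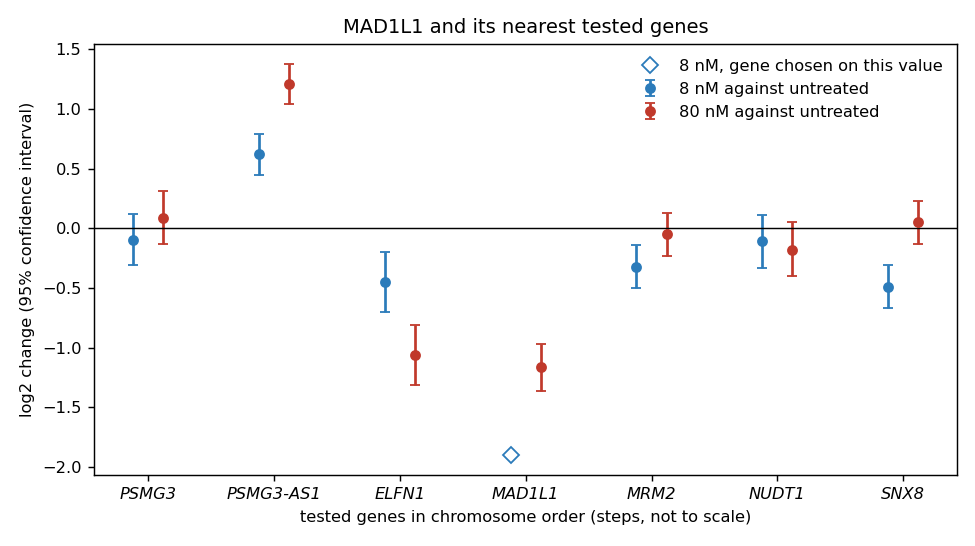
Log2 change of MAD1L1 and of the 3 nearest tested genes on each side, in chromosome order, at 8 nM (blue) and 80 nM (red) against untreated cells, with 95% confidence intervals from limma. The open diamond is MAD1L1 at 8 nM (-1.90), and the 8 nM values of its neighbours run from -0.49 for SNX8 to 0.62 for PSMG3-AS1.

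Likeness to MAD1L1 was measured as the Pearson correlation of levels over the 9 arrays, which reflects mostly the differences between the 3 groups. Among the other members it was 0.94 for BUB1 and 0.78 for BUB1B, and it was 0.55 for MAD2L1, 0.53 for BUB3, 0.53 for TTK, 0.15 for ZW10, 0.07 for MAD2L2, -0.02 for MAD2L1BP and -0.12 for KNTC1. With the scaling used, BUB1 and BUB1B thus ran most like MAD1L1, and the genes that rose at 80 nM least. These correlations include the untreated and 8 nM values that chose MAD1L1, so they are a description and carry no test. Their spread over all genes is not given here. With spike-in scaling BUB1 and BUB1B were lower at 80 nM than at 8 nM (-0.20 and -0.15), whereas this change of MAD1L1 was at least 0.37 under those alternatives that kept all arrays. Of 13994 genes with a symbol, those most alike were DHRSX (0.983), FAM20C (0.983), EIPR1 (0.981), HCCS (0.979) and C1orf52 (0.976). With the scaling used, all 5 were lowest at 8 nM and highest in untreated cells. Their changes at 8 nM ran from -0.62 for DHRSX to -0.34 for EIPR1, smaller than that of MAD1L1. From 8 to 80 nM they rose by 0.12 (FAM20C) to 0.28 (DHRSX). Spike-in scaling moved the median of all genes in that comparison from 0.12 to -0.24, a shift shared by every gene and larger than these rises. Under that scaling the 5 genes would thus be lowest at 80 nM.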

How the data were processed

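RNA of A2780 cells was measured after 24 h with no drug or with DIG-MSK at 8 or 80 nM, on 3 arrays a group. The authors scanned 1-colour Agilent arrays with 62976 spots, and the deposited scanner files hold the processed intensity of each spot, background-subtracted by Feature Extraction 10.7.3.1. The study's methods name background subtraction and lowess normalization in that software. A deposited table of the series holds the authors' log2 values, used as an alternative, with nearly equal distributions over the arrays (medians 6.602 to 6.609). The labels and the study's methods name different labelling kits.

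Control spots and outlier-flagged spots were left out, spots of a probe were averaged, and log2 intensity was scaled to the 75th percentile of each array. Probes were kept where every array of at least 1 group read them well above background (26457), the brightest probe stood for a gene, and 21832 genes were tested, of which 13995 had a symbol from RefSeq. Names came from RefSeq for 25711 of the 26576 probes that carry a RefSeq accession. Groups were compared with limma 3.58.1 in R 4.3.3 over all 9 arrays, with Benjamini-Hochberg adjustment, after a test on simulated data. Precision is limited by the number of arrays. Named genes were all members, up to 3 called genes a direction for each list and comparison (further called genes, PMF1 and CCNB1, were named to complete a count), 3 neighbours a side and the 5 genes most like MAD1L1. The members and lists were chosen with earlier results of these data known.

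Deviations of untreated and 8 nM arrays of the same replicate number correlated at 0.114, 0.101 and 0.163, so the numbers were taken to pair these arrays. In the other comparisons they correlated from -0.124 to 0.0156 and were not. The calls given nevertheless come from fits without the pairing, and fits with it are among the alternatives. With the pairing over the untreated and 8 nM arrays alone, 799 genes were called at 8 nM, beside 2974 in the fit given. Of the members only MAD1L1 was then called. The lists were read with the pairing only over all 9 arrays. Alternatives were normexp (offset 50, on the median spot signal), quantile, median or spike-in scaling, the authors' log2 values, other filters and probe rules, other fits, and leaving out each array.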

Additional observations from a re-analysis of the deposited data

How the results depend on the processing

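Over 21 alternatives for the 10 members in 3 comparisons, 565 of 630 values kept their direction and side of the threshold, 40 lost a call with the sign kept, 8 gained one and 17 changed sign, 2 of which also lost a call, so that 42 calls were lost. The number of members called at 8 nM, 3 with MAD1L1, was 1 with spike-in scaling, with only the groups compared, with the replicate block in that fit and by the study's rule, and 1 to 4 without 1 array, the 1 being without untreated replicate 2 and the 4 without 8 nM replicate 2. At 80 nM the 5 called became 1 with spike-in scaling (MAD1L1) and 2 by the study's rule, and between 8 and 80 nM the 7 became 0 and 3. Where the sign changed, the value was small or the scaling was to spike-in probes. KNTC1 at 8 nM was -0.01 with normexp, -0.02 with median scaling and -0.03 to 0.03 without 1 array. MAD2L1BP at 8 nM was 0.02 with quantile normalization, 0.03 with spike-in scaling and 0.00 with the authors' values. MAD2L1 at 80 nM was -0.10 with spike-in scaling. Between 8 and 80 nM, spike-in scaling gave -0.20 for BUB1, -0.15 for BUB1B, -0.30 for BUB3, -0.31 for TTK and -0.01 for KNTC1. BUB3 was -0.01 with quantile normalization, -0.05 with the authors' values and -0.07 to 0.13 without 1 array, and TTK was -0.09 to 0.13 without 1 array, the lowest of both being without 8 nM replicate 2. The replicate block, with pairing by number, left MAD2L1 called at 8 nM over all arrays (adjusted p = 0.047, limma) but not over the untreated and 8 nM arrays alone (adjusted p = 0.11), ended the calls of BUB1 at 8 nM (adjusted p = 0.054) and of BUB1B between 8 and 80 nM (adjusted p = 0.05), and over all arrays changed no other call of a member.

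Over all genes, 2974 were called at 8 nM, 42.0% of them lower. The count was 371 with spike-in scaling (6.74% lower), 1790 without a filter, 1521 with only the groups compared (32.0%), 799 with the replicate block in that fit (22.0%), and 1648 to 3926 without 1 array. At 80 nM, 12878 became 6800 with spike-in scaling, and the share lower went from 43.5% to 73.4%. Between 8 and 80 nM, 12565 became 6412, and the share from 39.8% to 79.8%. The cause of these shifts was not tested.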
